A study of Mus musculus with 9 samples.

Results

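Genes of the lung's structural cells were followed across 4 leukocyte populations sorted from inflamed mouse lungs. The set holds 10 genes named for the cells that make their products: the surfactant protein genes Sftpa1, Sftpb, Sftpc and Sftpd, the epithelial genes Krt18 and Cdh1, the endothelial genes Cdh5 and Tek, and the stromal genes Sparc and Col3a1. All probe sets annotated with exactly 1 of these symbols were taken, which gave 16 of the 45101 probe sets of the table. Sparc had 3 probe sets, Sftpa1, Sftpc, Cdh5 and Col3a1 had 2 each, and the other 5 genes had 1 each.

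The samples were 9 Affymetrix arrays of RNA from cells of female 4get mice on the BALB/c background, aged 6 to 8 weeks, whose cells turn green fluorescent when the Il4 locus is active. Every mouse had received 0.5 µg of IL-25, a cytokine that drives type 2 inflammation, by intratracheal instillation of 50 µL once a day over 4 days, and no untreated mice were among the samples analysed here. After digestion of the lungs, magnetic selection for CD11b preceded the sort of 400000 cells, and cells of 4 donor mice were pooled. The labels do not say whether each replicate was a pool of its own, so the p-values measure the spread between these arrays, which may be technical. Arrays labelled T2M (3 arrays) held cells with the reporter and the macrophage antigen ADGRE1, without the IL-5 receptor, with little MHC class II and a middle level of Gr-1. The eosinophil label (2 arrays) stood for cells with the IL-5 receptor and much Gr-1 but neither reporter nor ADGRE1, and little MHC class II. The neutrophil label (2 arrays) stood for Gr-1-positive cells with little MHC class II that lacked the reporter, the IL-5 receptor and ADGRE1. The macrophage label (2 arrays) stood for cells with ADGRE1 and MHC class II that lacked Gr-1, the reporter and the IL-5 receptor. All 4 gates required CD11b, an integrin of myeloid cells, and none selected for an epithelial, endothelial or stromal marker.

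The alveolar surface is kept open by surfactant, a film of lipid and protein that type II alveolar epithelial cells make and secrete. Surfactant proteins B and C are small hydrophobic proteins of that film, whereas surfactant proteins A and D are collectins, secreted lectins that bind microbes. Surfactant is cleared in part by alveolar macrophages, and a cell suspension from digested lung also contains epithelium, vessel wall and connective tissue. Some of the genes, Cdh1 among them, are also known from leukocytes.

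In lung epithelium, the surfactant genes are controlled by the transcription factor NKX2-1, which recognises sites with the core CTCAAG. RefSeq start regions were at hand for 6 of the 10 genes. Those of Sftpa1 and Sftpb are shown, because these 2 secreted products are made by the same cell type and each had the motif. The 250 bases before the annotated start are given 5′ to 3′ in assembly GRCm38.p6, at chr14:41131538-41131787 on the + strand for Sftpa1 and at chr6:72304360-72304609 on the + strand for Sftpb, with CTCAAG in capitals.
Sftpa1: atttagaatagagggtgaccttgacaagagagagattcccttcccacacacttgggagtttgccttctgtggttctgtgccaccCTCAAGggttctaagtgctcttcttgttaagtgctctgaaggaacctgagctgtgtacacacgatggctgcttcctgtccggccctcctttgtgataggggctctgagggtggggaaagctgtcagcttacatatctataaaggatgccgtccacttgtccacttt
Sftpb: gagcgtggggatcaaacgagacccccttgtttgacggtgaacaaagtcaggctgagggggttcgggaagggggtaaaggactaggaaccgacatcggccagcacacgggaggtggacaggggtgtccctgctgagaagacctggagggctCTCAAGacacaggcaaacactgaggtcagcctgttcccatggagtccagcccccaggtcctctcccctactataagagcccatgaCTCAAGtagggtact
Searched on both strands (CTCAAG or its reverse complement CTTGAG), the Sftpa1 window held 1 match, which began 166 bases before the start, and the Sftpb window held 2, which began 100 and 15 bases before it. The windows of Krt18, Tek, Sparc and Col3a1 held 0 matches. The Tek window, at chr4:94739039-94739288, runs past the start of its RefSeq gene record (94739086), so it lies only in part before that start. Of 32851 start regions of the same length, 13.3% held at least 1 match and 0.998% held 2 or more, so a match of this length is a description of the sequence only.

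The mean of 8 leukocyte genes was high on every array. All gates required CD11b, which Itgam encodes, and these levels do not measure RNA from other cells. The 8 genes were Ptprc, Itgam, Itgb2, Spi1, Coro1a, Laptm5, Tyrobp and Fcer1g. Their mean log2 level was 11.1 to 11.7 on T2M arrays, 11.8 to 12.2 on eosinophil arrays, 11.6 to 11.7 on neutrophil arrays and 11.8 on both macrophage arrays. Single genes varied more. Itgam ran from 8.34 (T2M replicate 1) to 10.77 (eosinophil replicate 2), and Spi1 from 8.94 (T2M replicate 1) to 11.53 (macrophage replicate 1). In the test across labels (limma's F test) 0 of the 8 were called, beside 13.3% of all probe sets. Replicate arrays correlated over all probe sets at r = 0.93 to 0.97 for T2M, 0.95 for eosinophils and 0.92 for neutrophils, and the macrophage pair stood apart at 0.99. Whether the macrophage pair came from separate RNA was not tested. Labels gave no date or batch. The 3′ minus 5′ difference of the actin control was 0.61 for T2M replicate 1 and 0.54 for eosinophil replicate 1, against -0.10 to 0.03 on the other 7 arrays.

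The surfactant genes were highest on T2M arrays for 3 of 4 genes by every probe set and lowest on macrophage arrays for all 4. Differences are given as log2 differences, so that 1 is a doubling, with the standard error (SE) of limma, and a call needed an adjusted p (Benjamini-Hochberg, over the 45037 probe sets tested) under 0.05. In such bulk samples, fewer cells of a type and less RNA per cell cannot be told apart. Sftpd, the collectin surfactant protein D, stood at log2 levels of 8.17, 8.45 and 8.11 on T2M arrays, 6.50 and 6.35 on eosinophil arrays, 6.91 and 5.54 on neutrophil arrays, and 5.48 and 5.97 on macrophage arrays. All 3 T2M arrays lay above all 6 others. The log2 difference was 2.52 against macrophages (SE 0.39, adjusted p = 0.00742) and 2.02 against neutrophils (adjusted p = 0.0483), both called, and 1.82 against eosinophils (adjusted p = 0.0501), just short of the threshold.

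Sftpa1, the collectin surfactant protein A, had log2 levels of 9.70, 10.52 and 9.70 on T2M arrays, 8.13 and 7.89 on eosinophil arrays, 9.34 and 7.41 on neutrophil arrays, and 6.53 and 7.36 on macrophage arrays by its brighter probe set. T2M arrays again lay above all others, with neutrophil replicate 1 next. The level was 8.18-fold higher in T2M than in macrophages (log2 difference 3.03, SE 0.56, adjusted p = 0.0141). Against eosinophils (1.96, adjusted p = 0.121) and neutrophils (1.60, adjusted p = 0.213) it was not called. The dimmer probe set read 8.32, 7.19 and 5.91 on T2M arrays, 6.85 and 5.47 on eosinophil arrays, 6.85 and 4.20 on neutrophil arrays, and 2.86 and 3.31 on macrophage arrays. By that probe set T2M and macrophages did not overlap (4.06, adjusted p = 0.026), but the macrophage values lay below the mean of 14 background genes on those arrays (4.90 and 4.96), which leaves the size of this difference uncertain, while T2M overlapped both granulocyte labels, and the 3 T2M arrays themselves spanned 2.41.

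Sftpb, surfactant protein B, was called in 1 of 3 T2M contrasts. Its log2 levels were 9.04, 10.14 and 7.93 on T2M arrays, 7.43 and 7.05 on eosinophil arrays, 7.66 and 6.13 on neutrophil arrays, and 6.03 and 6.69 on macrophage arrays. T2M arrays were the highest 3 of 9, but they spanned 2.20. The difference was 2.68 against macrophages (SE 0.66, adjusted p = 0.0372), 2.14 against neutrophils (adjusted p = 0.16) and 1.80 against eosinophils (adjusted p = 0.234).

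Sftpc, a classical marker of type II cells, was not called in any contrast or in the test across labels (adjusted p = 0.278 and 0.553 for its 2 probe sets). By the brighter probe set its log2 levels were 9.86, 12.09 and 11.04 on T2M arrays, 8.65 and 9.73 on eosinophil arrays, 11.49 and 8.36 on neutrophil arrays, and 7.98 and 8.96 on macrophage arrays. Neutrophil replicate 1 was higher than 2 of the 3 T2M arrays, so these labels overlapped. The dimmer probe set ranked neutrophils highest, at 10.21 ± 2.11 (SD, n = 2), beside 10.01 ± 1.53 in T2M (n = 3), 9.32 ± 0.42 in eosinophils (n = 2) and 8.44 ± 0.85 in macrophages (n = 2). The difference between T2M and macrophages was 2.53 (SE 0.96, adjusted p = 0.116) by the first and 1.58 (SE 1.04, adjusted p = 0.311) by the second, with 95% intervals of 0.32 to 4.73 and -0.81 to 3.97.

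**Figure D1:**
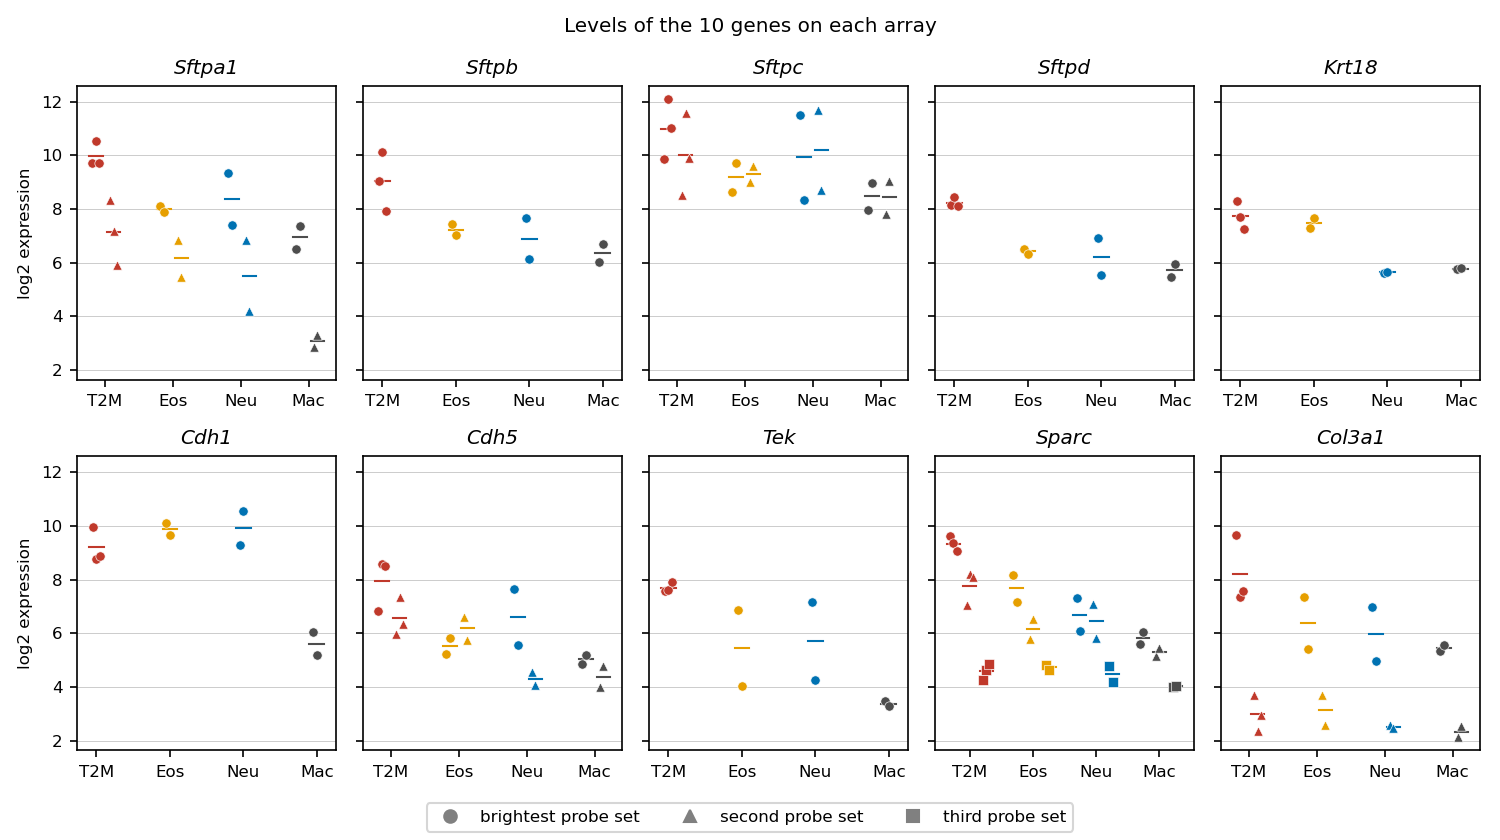
Log2 expression (vertical axis) of each of the 10 genes on each of the 9 arrays, by label (T2M, Eos for eosinophils, Neu for neutrophils, Mac for macrophages). Points are arrays, bars are label means, and shapes are the probe sets of a gene in order of brightness; macrophage arrays are lowest for most genes, and Cdh1 is high in all 3 other labels.

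The 2 epithelial cell genes departed from the surfactant pattern. Krt18, a keratin of simple epithelia, had log2 levels of 8.29, 7.71 and 7.25 on T2M arrays, 7.28 and 7.68 on eosinophil arrays, 5.63 and 5.67 on neutrophil arrays, and 5.76 and 5.81 on macrophage arrays. T2M and eosinophil arrays overlapped and lay above all neutrophil and macrophage arrays, whose label means lay 0.13 apart. Krt18 was higher in T2M than in neutrophils (log2 difference 2.10, SE 0.31, adjusted p = 0.0251) and than in macrophages (1.97, adjusted p = 0.00835). On neutrophil replicate 1 its level was close to the mean of the background genes (5.58), so no fold is given. Eosinophils likewise exceeded neutrophils (1.83, adjusted p = 0.0234) and macrophages (1.70, adjusted p = 0.0168). Between T2M and eosinophils the difference was 0.27, with a 95% interval of -0.45 to 0.99.

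Cdh1, which encodes the adhesion molecule E-cadherin, differed from macrophages in all 3 other labels, with no called difference among those 3. The log2 levels were 9.97, 8.76 and 8.90 on T2M arrays, 10.11 and 9.66 on eosinophil arrays, 9.27 and 10.57 on neutrophil arrays, and 6.04 and 5.18 on macrophage arrays. The macrophage arrays lay apart from the 7 others, and the other 3 labels overlapped. Over macrophages, Cdh1 was raised 12.1-fold in T2M (3.60 on the log2 scale, SE 0.51, adjusted p = 0.00552), 19.3-fold in eosinophils (4.27, SE 0.56, adjusted p = 0.00306) and 19.8-fold in neutrophils (4.31, SE 0.56, adjusted p = 0.0109). On macrophage replicate 2 Cdh1 was close to the mean of the background genes (4.96), so the size of these folds is uncertain. T2M minus eosinophils was -0.68 (95% interval -1.85 to 0.50), T2M minus neutrophils -0.72 (-1.89 to 0.46) and eosinophils minus neutrophils -0.04 (-1.33 to 1.25). Cdh1 was lower on neutrophil replicate 1 than on replicate 2, by 1.30, as was Krt18 by 0.04.

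Of the endothelial genes, Cdh5 encodes VE-cadherin of endothelial junctions and Tek the angiopoietin receptor TIE2, which is also known from a subset of monocytes. Cdh5 had log2 levels of 6.83, 8.57 and 8.50 on T2M arrays, 5.24 and 5.83 on eosinophil arrays, 7.63 and 5.56 on neutrophil arrays, and 4.86 and 5.21 on macrophage arrays by its brighter probe set. The dimmer probe set gave 5.98, 7.34 and 6.34 on T2M arrays, 6.61 and 5.76 on eosinophil arrays, 4.55 and 4.07 on neutrophil arrays, and 4.01 and 4.76 on macrophage arrays. The 2 probe sets agreed on T2M over macrophages, at 2.93 (SE 0.69, adjusted p = 0.0324) and 2.17 (SE 0.46, adjusted p = 0.0233). On macrophage arrays both values of the dimmer probe set lay below the mean of the background genes, as did the brighter probe set on replicate 1. On neutrophil arrays both values of the dimmer probe set also lay below that mean (5.58 and 5.05). The probe sets disagreed on the granulocyte labels, where eosinophils minus neutrophils was -1.06 (SE 0.76, adjusted p = 0.563) by the first and 1.88 (SE 0.51, adjusted p = 0.0766) by the second, and neither was called.

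Tek split the replicates of both granulocyte labels. It had log2 levels of 7.58, 7.61 and 7.91 on T2M arrays, 6.88 and 4.04 on eosinophil arrays, 7.15 and 4.25 on neutrophil arrays, and 3.49 and 3.27 on macrophage arrays. T2M arrays spanned 0.33, whereas replicate 1 exceeded replicate 2 by 2.84 in eosinophils and by 2.90 in neutrophils. Tek was called higher in T2M than in macrophages (log2 difference 4.32, SE 0.95, adjusted p = 0.0252). Both macrophage values lay below the mean there of 14 genes taken as background (4.90 and 4.96), so the macrophage level may be background and the size of the difference is not given as a fold. Those 14 genes ran from 2.41 to 9.75 over all arrays, so their mean is a rough guide and not a detection limit. Tek was not called against eosinophils (2.24, adjusted p = 0.312) or neutrophils (2.00, adjusted p = 0.372).

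Among stromal genes, Sparc encodes a matricellular protein of fibroblasts and endothelium that platelets also carry, and Col3a1 a fibrillar collagen chain. By its brightest probe set, Sparc had log2 levels of 9.62, 9.36 and 9.05 on T2M arrays, 8.18 and 7.18 on eosinophil arrays, 7.31 and 6.08 on neutrophil arrays, and 5.61 and 6.06 on macrophage arrays. T2M lay above every other array. The difference was 3.50 against macrophages (SE 0.44, adjusted p = 0.0034) and 2.65 against neutrophils (SE 0.44, adjusted p = 0.0322), both called, and 1.66 against eosinophils (adjusted p = 0.0957). Eosinophils exceeded macrophages by 1.84 (SE 0.48, adjusted p = 0.0422). The second probe set averaged 7.78 ± 0.62 in T2M (SD, n = 3), 6.17 ± 0.53 in eosinophils, 6.45 ± 0.88 in neutrophils and 5.30 ± 0.23 in macrophages (n = 2 each), and only T2M over macrophages was called (2.47, adjusted p = 0.0168). The third stayed between 3.99 and 4.86 on all 9 arrays and was called in 0 contrasts.

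Col3a1 was called in 0 contrasts by either probe set. By the brighter probe set its log2 levels were 9.67, 7.34 and 7.59 on T2M arrays, 7.35 and 5.43 on eosinophil arrays, 6.98 and 4.97 on neutrophil arrays, and 5.36 and 5.55 on macrophage arrays. T2M replicate 1 stood more than 2 above the other T2M arrays. The difference between T2M and macrophages was 2.74 (SE 0.88, adjusted p = 0.0773). The dim probe set ran from 2.13 to 3.70 on all arrays.

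Counted by probe set, T2M was called higher than macrophages for most of the set, than neutrophils for 3 and than eosinophils for 0. An uncalled probe set is not shown to be equal. Against macrophages 11 of 16 were called higher in T2M, from 8 of 10 genes, and 0 lower, where 4.78% of all probe sets tested were called higher and 7.85% lower. The 16 had a median difference of 2.60, beside 0.17 for all probe sets. The genes were chosen with earlier results of these data known. The shares of all probe sets, here and below, are therefore a description and not an independent test of the set. Against neutrophils 3 of 16, Sftpd, Krt18 and Sparc, were called higher and 0 lower (background 0.855% higher and 0.93% lower), with a median of 1.61 beside -0.01. Against eosinophils 0 of 16 were called in either direction, where 1% of all probe sets were called higher and 2.15% lower, and the median was 1.63 beside 0.05. The medians against neutrophils and eosinophils were close, so the counts of 3 and 0 do not rank these labels. These 3 contrasts share the T2M arrays.

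Among the other labels, eosinophils exceeded macrophages for 3 of 16 probe sets, Krt18, Cdh1 and Sparc (background 4.75% higher and 8.12% lower), with a median difference of 0.91 beside 0.18 for all probe sets. Neutrophils exceeded macrophages for Cdh1 alone (background 0.722% higher and 0.779% lower), with a median of 1.00 beside 0.15. Krt18 was the 1 probe set called higher in eosinophils than in neutrophils (background 2.83% higher and 2.85% lower), with a median of 0.23 beside -0.04. In the test across all 4 labels 7 of 16 probe sets were called, for Sftpa1, Sftpd, Krt18, Cdh1, Cdh5 and both brighter Sparc probe sets, where 13.3% of all probe sets were called.

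The T2M mean was the highest for 12 of 16 probe sets, the eosinophil and neutrophil means for 2 each, and the macrophage mean was the lowest for 14 and the neutrophil mean for 2. Every T2M array lay above every macrophage array for 14 of 16 probe sets, and 38.8% of all probe sets did so. The same held against eosinophils for 8 of 16 (17.5% of all) and against neutrophils for 8 of 16 (11.5% of all). The order of the uncalled labels was not stable: when each array was left out in turn, 26 of the 96 differences between labels changed sign, among them 0 of the 19 called ones, and 19 of the 26 did so without a neutrophil array. Of 48 steps between neighbours in these orders, 2 were called: eosinophils over macrophages for Krt18 and T2M over macrophages for Cdh1.

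**Figure D2:**
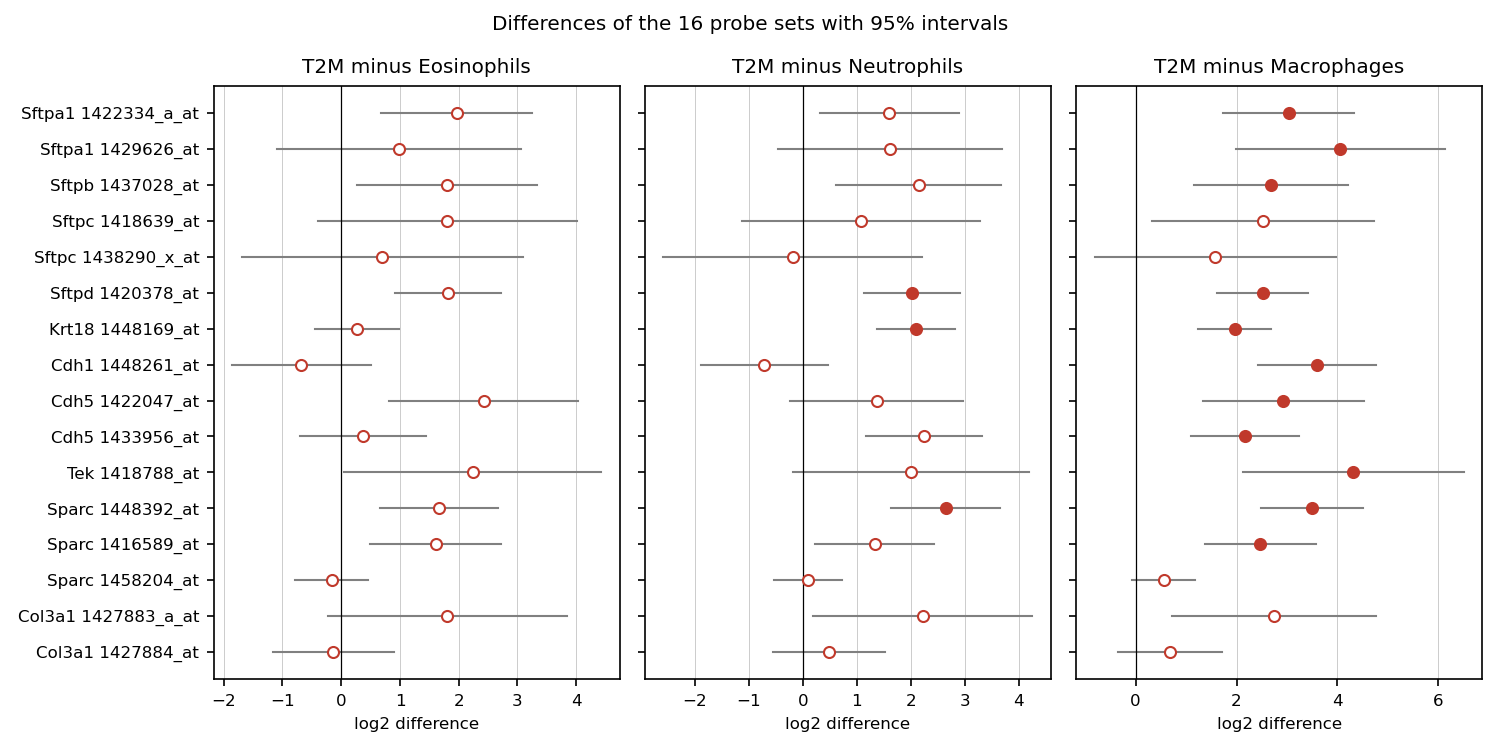
Log2 difference (horizontal axes) of T2M from eosinophils, neutrophils and macrophages for each of the 16 probe sets. Points are limma estimates, lines their 95% intervals, and filled points were called at an adjusted p under 0.05: 0, 3 and 11 of 16 in the 3 panels.

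Arrays of the same label also differed, most of all in neutrophils. Neutrophil replicate 1 exceeded replicate 2 for 14 of 16 probe sets (53.1% of all probe sets), and by more than 1 for 11 of 16 (6.75% of all). It lay more than 1 below replicate 2 for 1 of 16 (16.3% of all). The largest gap was 3.14, for Sftpc. In eosinophils 4 of 16 probe sets were more than 1 higher on replicate 1, for Tek, Col3a1 and Sftpa1 (7.2% of all). Of the 16, 1, of Sftpc, was more than 1 lower (6.02% of all). The macrophage pair differed by more than 1 for 1 of 16 probe sets, the dimmer of Sftpc (-1.20). Of all probe sets, 0.213% were more than 1 lower and 0.111% more than 1 higher on macrophage replicate 1. T2M replicate 1 lay more than 1 below replicate 2 for 6 of 16 probe sets, of Sftpb, Sftpc, Cdh5 and Sparc (7.1% of all). It stood more than 1 above replicate 2 for 4, of Sftpa1, Cdh1 and Col3a1 (9.33% of all).

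**Figure D3:**
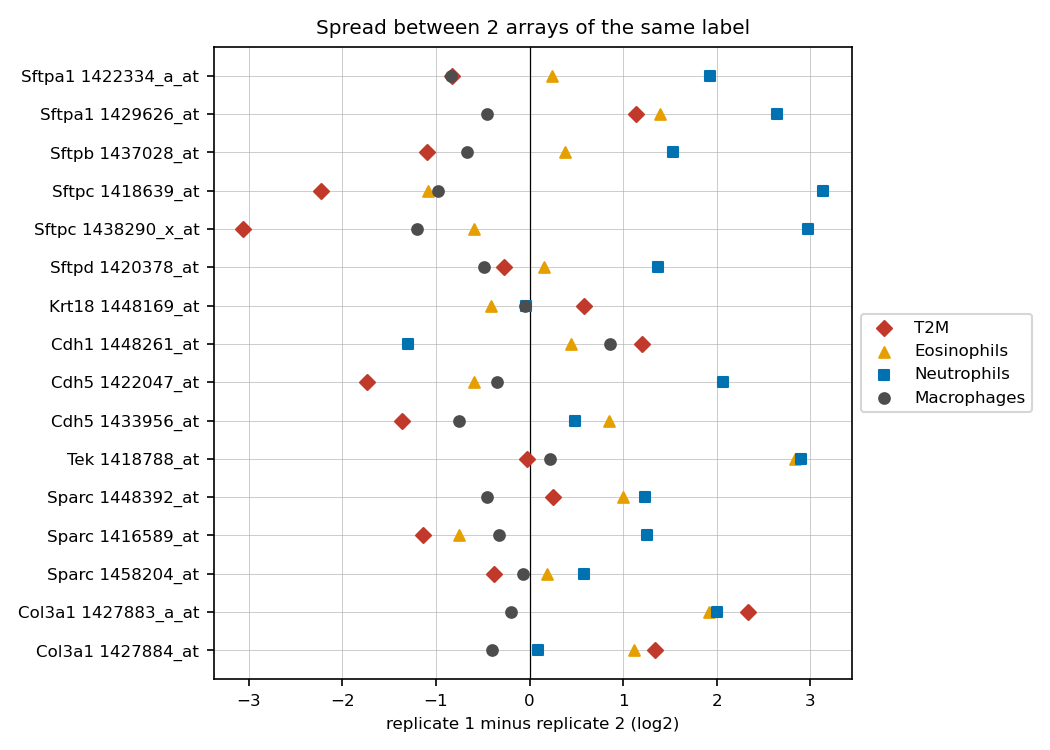
Replicate 1 minus replicate 2 of the same label (log2, horizontal axis) for each of the 16 probe sets, with 1 marker per label. The neutrophil markers lie right of 0 for 14 of 16 probe sets, up to 3.14, and the macrophage markers stay between -1.20 and 0.86.

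Over the 9 arrays, the brightest probe sets of the 9 genes other than Cdh1 correlated at Pearson r = 0.36 to 0.96 over their 36 pairs, with a median of 0.81, while the 9 pairs with Cdh1 gave 0.22 to 0.53. Arrays share label, pool size and amplification, so these values are descriptive. Within genes, the 2 probe sets of Sftpc correlated at 0.91, those of Sftpa1 at 0.85, the 2 brighter of Sparc at 0.82, those of Col3a1 at 0.74 and those of Cdh5 at 0.56. The genes whose pattern was most like that of Sparc were F2r (r = 0.99), Cavin2 (0.99) and Sele (0.99). Those most like Sftpd were Epx, Aspa and Fzd6 (0.98 to 0.99), and those most like Sftpa1 were Cacng3, Igfbp7 and Fbxo41 (each 0.98). Cdh1 was nearest to Errfi1 (0.99), Cdkn1a (0.98) and Ifrd1 (0.98), and Krt18 to Reps2 (0.98), Alas1 (0.95) and F2rl2 (0.95). Cdh5 by its dimmer probe set was nearest to Fgd5 (0.96), Zeb1 (0.95) and Srpk2 (0.95). Some of these genes were dim. Label means ran from 3.68 to 4.84 for Cacng3 and from 3.00 to 4.47 for Fgd5, below the mean of the background genes.

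Other markers of the same 3 compartments were read from lists of further genes, 1 probe set each, of which 31 of 32 epithelial, 30 of 30 endothelial and 31 of 32 stromal genes were measured. These lists were chosen with earlier results of these data known and read on the same arrays, so they are not independent of the set. Of stromal genes, 14 of 31 were called higher in T2M than in macrophages and 0 lower, with a median difference of 1.52. In T2M, 3 of 31 were called higher than in neutrophils and 0 higher than in eosinophils. Endothelial genes had 10 of 30 higher in T2M than in macrophages and 0 lower (median 1.55), 5 higher than in neutrophils and 0 higher than in eosinophils. Epithelial genes were split, with 4 of 31 higher and 4 lower in T2M than in macrophages and a median of 0.43, and 1 of 31 was lower and 0 higher in T2M than in either granulocyte label. Medians over all probe sets were 0.17, -0.01 and 0.05 for T2M against macrophages, neutrophils and eosinophils. Of all probe sets, 4.78% were called higher and 7.85% lower in T2M than in macrophages. The shares were 0.855% and 0.93% against neutrophils, and 1% and 2.15% against eosinophils.

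By size, the epithelial list was led by genes that moved in opposite directions. Pdpn, the podoplanin gene of type I alveolar cells and lymphatic vessels, averaged 9.03 in T2M, 8.59 in eosinophils, 8.70 in neutrophils and 4.64 in macrophages. Napsa, an aspartic protease gene, averaged 7.25 in T2M, 7.96 in eosinophils, 9.49 in neutrophils and 11.51 in macrophages. Ehf, an epithelial transcription factor gene, averaged 4.95 in T2M, 5.11 in eosinophils, 5.61 in neutrophils and 8.85 in macrophages. In the endothelial list Car4, a carbonic anhydrase of lung capillaries, averaged 11.94 in T2M, 12.23 in eosinophils, 9.69 in neutrophils and 5.56 in macrophages. Cav1, the caveolin gene, averaged 9.72 in T2M, 8.13 in eosinophils, 6.31 in neutrophils and 4.92 in macrophages. Ednrb, an endothelin receptor gene, averaged 9.65 in T2M and 3.32 in macrophages, and on neutrophil arrays it was higher on replicate 2 (9.43) than on replicate 1 (8.55). The stromal list was led by Acta2, smooth muscle actin, which was highest in eosinophils, at 8.99 in T2M, 10.70 in eosinophils, 5.85 in neutrophils and 5.85 in macrophages. Mgp, matrix Gla protein, averaged 10.76 in T2M, 9.86 in eosinophils, 9.13 in neutrophils and 6.63 in macrophages, and Mfap4, a microfibril protein, 7.72, 6.21, 5.79 and 4.64 in the same order.

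Most of the listed markers were not called across labels. The test called 5 of 31 epithelial, 10 of 30 endothelial and 9 of 31 stromal genes, beside 13.3% of all probe sets. Epcam, the pan-epithelial adhesion gene, was at 7.37 to 7.50 on T2M arrays and 8.03 to 8.47 on macrophage arrays, and was called in no contrast. Nkx2-1 stayed between 5.96 and 6.60 on all 9 arrays and the endothelial receptor gene Kdr between 4.32 and 5.59, and neither was called. These 3 genes were not named by size and do not stand for their lists. Among the 10 called endothelial genes, Sox18 averaged 7.73 in T2M and 5.26 in macrophages (limma contrast, adjusted p = 0.00543). Plvap averaged 8.57 and 4.93 (adjusted p = 0.00627).

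Marker lists of other cells moved as well, and their part in the results was not tested. The mean level of 13 alveolar macrophage genes was 8.12 to 9.21 on T2M arrays, 7.32 to 7.77 on eosinophil arrays, 7.75 to 8.52 on neutrophil arrays and 6.70 to 6.81 on macrophage arrays. Of the 13, 5 were called higher in T2M than in macrophages (4.78% of all probe sets). The 10 platelet genes averaged 6.58 to 6.86 on T2M arrays, 6.49 and 6.76 on eosinophil arrays, 6.36 and 6.46 on neutrophil arrays, and 5.53 and 5.61 on macrophage arrays. Of these 10, 1, the chemokine gene Pf4, was called higher in T2M than in macrophages, 3 in eosinophils and 1 in neutrophils. The shares of all probe sets were 4.78%, 4.75% and 0.722% in the same order. Of 19 genes of the Y chromosome, which female mice lack, or of eye, pancreas, kidney or testis, 14 were measured as a background level. Their mean was 5.38 to 5.54 on T2M arrays, 5.37 to 5.43 on eosinophil arrays, 5.05 to 5.58 on neutrophil arrays and 4.90 to 4.96 on macrophage arrays. Single values of the 14 genes ran from 2.41 to 9.75. All 14 had a higher mean in T2M than in macrophages, with a median difference of 0.53, and 1 of 14, Zfy2, was called higher (adjusted p = 0.0442).

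**Figure D4:**
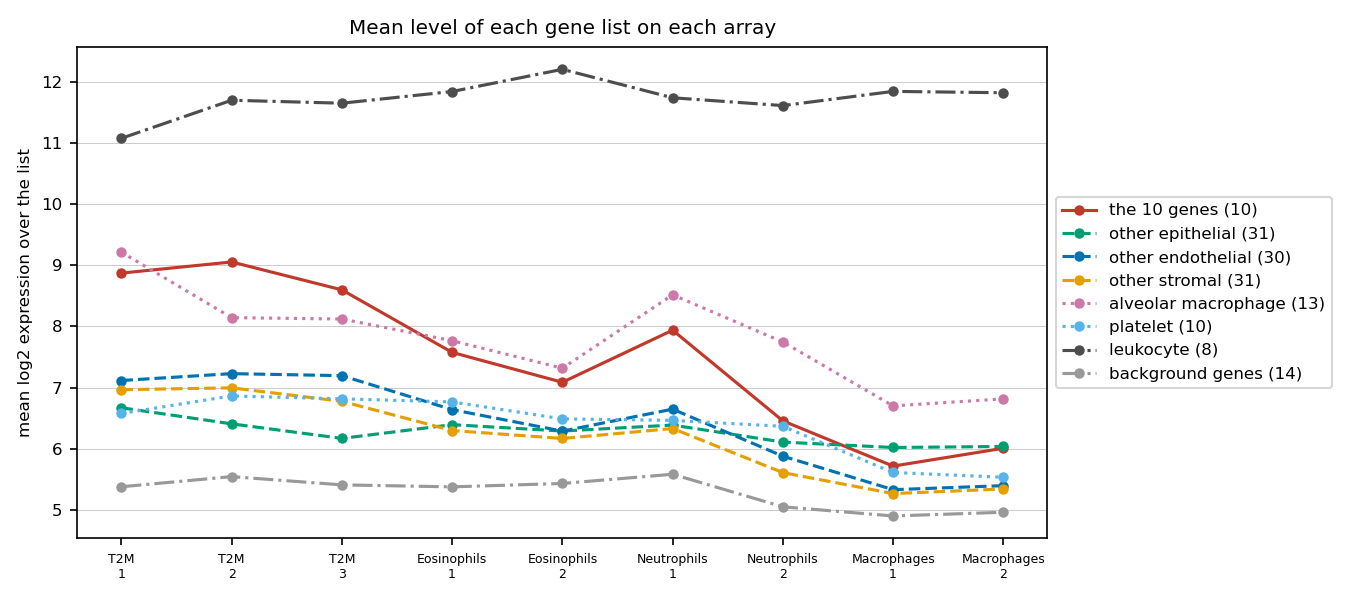
Mean log2 expression of each gene list (vertical axis) on each of the 9 arrays, with the number of genes measured in brackets; a list is compared with itself across arrays. The 10 genes average 8.60 to 9.05 on T2M arrays and 5.71 to 6.01 on macrophage arrays, while the mean of the leukocyte genes stays between 11.1 and 12.2.

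The Gapdh control, a sign of RNA or amplification quality, moved with the set, and the actin control did so less. The 3′ minus 5′ difference of the Gapdh control was 2.35 to 3.43 on T2M arrays, 2.41 and 1.08 on eosinophil arrays, 2.20 and 1.45 on neutrophil arrays, and 1.02 and 1.20 on macrophage arrays. The mean of the 10 genes was 8.60 to 9.05 on T2M arrays, 7.57 and 7.09 on eosinophil arrays, 7.94 and 6.45 on neutrophil arrays, and 5.71 and 6.01 on macrophage arrays. In each label with 2 arrays, the macrophage label included, the array with the larger Gapdh difference had the higher mean. Among T2M arrays the order was another: replicates 1, 2 and 3 had Gapdh differences of 3.43, 2.35 and 2.97 and means of 8.87, 9.05 and 8.60, so the array with the smallest difference had the highest mean. The actin control was -0.04 and -0.02 on T2M replicates 2 and 3, beside -0.01 and -0.02 on macrophage arrays. It was 0.61 on T2M replicate 1. In eosinophils the array with the higher mean had the larger actin difference (0.54 against -0.03). In neutrophils (-0.10 against 0.03) and macrophages that array had the smaller one. The part of either control in the differences between labels was not tested.

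**Figure D5:**
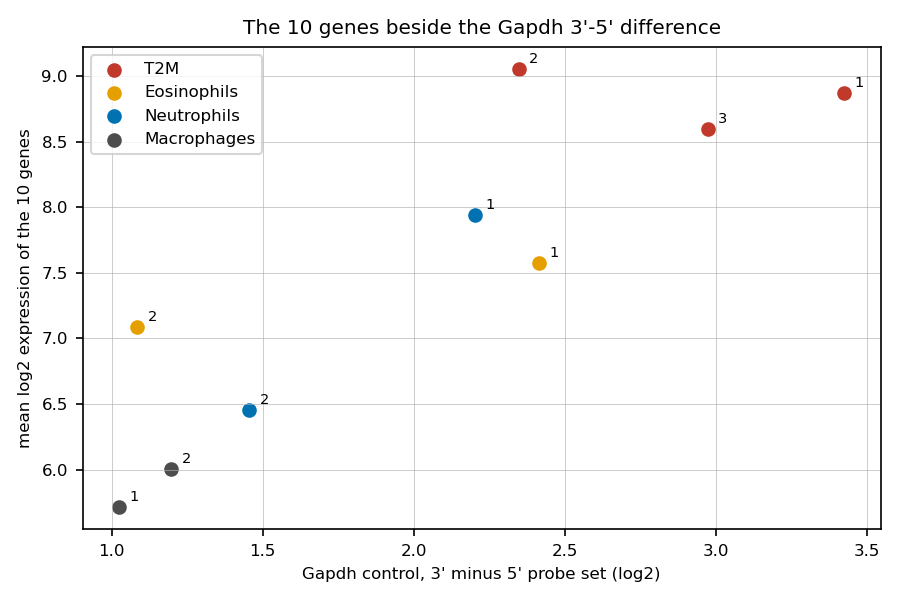
Mean log2 expression of the 10 genes (vertical axis) against the 3′ minus 5′ difference of the Gapdh control probe sets (log2, horizontal axis), 1 point per array with its replicate number. Macrophage arrays lie at the lower left, T2M arrays at 2.35 or more on the horizontal axis and 8.60 or more on the vertical axis.

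The contrasts with macrophages rest on how the 2 closely correlated arrays are counted. With these averaged as 1 array, 1 of 16 probe sets was called higher in T2M, and without macrophage replicate 1 or replicate 2 the count was also 1, against 11 with both. Leaving out T2M replicate 2 gave 6 of 16, and leaving out T2M replicate 3 gave 7. Calls over all 45037 probe sets fell in these 2 fits too, from 5689 to 3307 and 3045. They also fell in the fits with 1 macrophage array, so a lower count is not particular to the set. Against neutrophils the count of 3 became 0 without T2M replicate 2 or either macrophage array, which enter through the shared estimate of the spread, and 1 without T2M replicate 3 or neutrophil replicate 2. Against eosinophils the count of 0 became 3 without either neutrophil array and 1 without T2M replicate 1. The call of Krt18 in eosinophils over neutrophils was lost without either eosinophil array, neutrophil replicate 1 or either macrophage array. Eosinophils over macrophages kept 1 call of 3 without either macrophage array, and neutrophils over macrophages had 0 without either and 3 without neutrophil replicate 2. Across labels the count of 7 became 2 without either macrophage array, 4 without T2M replicate 2 and 11 without neutrophil replicate 1. Cdh1 in eosinophils over macrophages was called in each of the 9 fits that left out 1 array (adjusted p up to 0.0369) and in all 12 other settings.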

How the data were processed

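The deposited values are log2 expression per probe set, 1 column per array; the authors' processing used RMA, affy and limma, per the submitters' processing notes, with versions and settings not given in the sources used here. RMA-like values compress differences of dim probe sets. Of 45101 probe sets, 64 controls were left out. Platform annotation gave 1 symbol for 34945, several for 932 and none for 9160, and all 16 member probe sets matched RefSeq (GRCm38.p6) by gene ID. The model, fitted per probe set in limma 3.58.1 under R 4.3.3, had 1 mean per label (lmFit, eBayes, two-sided, all 9 arrays, 5 residual and 3.01 prior degrees of freedom, prior SD 0.327). The fit was tested on simulated data. Precision is limited by how few arrays there were: the median SE was 0.312 in T2M contrasts and 0.342 in the others. The fit takes arrays as independent. Each list gene was represented by its probe set of highest mean. List genes named by size were the 3 called across labels with the widest label means per list. Epcam, Nkx2-1, Kdr, Sox18 and Plvap were named outside this rule. Most alike genes were the 3 with the highest Pearson r among probe sets whose label means span at least 1. Members and lists were chosen with earlier results of these data known. Alternatives covered probe sets per gene, dim probe sets, scaling, moderation, array weights, samples, a replicate block, a minimum difference and each array left out. Figures were drawn with matplotlib 3.10.9.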

Additional observations from a re-analysis of the deposited data

How the results depend on the processing

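The call counts of the 16 probe sets depended on the fit. With each array left out in turn, a count added after the data were seen, 0 of the 19 called differences and 26 of all 96 changed sign, 24 of them among the 43 uncalled differences smaller than 1, which were not followed under the other alternatives. Of 19 called differences, 2 stayed past the threshold under all other settings and 1, Cdh1 in eosinophils over macrophages, also without any 1 array. Leaving out each array in turn gave 2 to 11 of 16 called across labels (7 with all arrays), 0 to 3 for T2M against eosinophils (0), 0 to 4 against neutrophils (3), 1 to 12 against macrophages (11), 0 to 1 for eosinophils against neutrophils (1), 1 to 4 for eosinophils against macrophages (3) and 0 to 3 for neutrophils against macrophages (1). In the same order of comparisons, the macrophage pair averaged as 1 array, an alternative added after the data were seen, gave 2, 0, 0, 1, 0, 1 and 0. Array weights gave 14, 3, 0, 15, 0, 6 and 1. Over all 45037 probe sets, array weights gave 17460, 2532, 55, 20748, 904, 12484 and 477 calls. A minimum difference of 1 gave 0, 0, 2, 0, 1 and 0 for the 6 pairs (154, 16, 657, 218, 1101 and 139 over all probe sets). Fits on only the 2 labels compared gave 1, 0, 12, 0, 5 and 0 (626, 0, 9370, 0, 9873 and 96 over all). Removing dim probe sets, with fewer tested, gave 11 across labels, and 1 for T2M against eosinophils (6260 and 1518 of the 26943 tested). Either form of 1 value per gene gave 1 there, for 10 genes in place of 16 probe sets. Without T2M replicate 1 and eosinophil replicate 1 together, also added after the data were seen, no count moved by over 1.5 times. The replicate block gave 4 across labels and 0 for T2M against neutrophils (3839 and 1 over all probe sets), and changed no other member count by over 1.5 times. The main fit did not pair arrays by number. Deviations of same-numbered arrays from their label means correlated at -0.10 to 0.46, with 3 of 12 pairs over 0.1. In labels of 2 arrays these deviations mirror each other, so the 12 values are not independent. The highest were T2M with eosinophils, at 0.46 for replicate 1 and 0.38 for replicate 2. Whether the arrays of these 2 labels were paired was not tested. For the other moved counts the cause was not tested. Of the 53 differences that were followed, called or at least 1 in size, 3 changed sign under any alternative, none of them called: Sftpc (brighter probe set) in T2M minus neutrophils ranged from -0.50 (without neutrophil replicate 2) to 2.64 as arrays were left out, in neutrophils minus macrophages from -0.11 (without neutrophil replicate 1) to 3.02, and Cdh5 in eosinophils minus neutrophils was 0.41 as the mean of its probe sets. Over all probe sets, calls ranged from 560 to 20748 for T2M against macrophages (5689), 154 to 2532 against eosinophils (1421) and 0 to 1564 against neutrophils (804), and from 1379 to 17460 across labels (5980), 0 to 3608 for eosinophils against neutrophils (2557), 1101 to 12484 for eosinophils against macrophages (5797) and 87 to 5457 for neutrophils against macrophages (676). Differences among uncalled members are limited by 2 or 3 arrays per label.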

Other observations

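The levels of 3 club cell genes of the conducting airway, chosen after their values were seen, differed between arrays of the same label. Scgb1a1, which encodes the main secretory protein of club cells, had log2 levels of 11.62, 7.48 and 8.12 on T2M arrays, 9.99 and 10.69 on eosinophil arrays, 7.52 and 6.75 on neutrophil arrays, and 6.54 and 7.56 on macrophage arrays. It was highest on T2M replicate 1 and next on both eosinophil arrays, and the test across labels did not call it (adjusted p = 0.19). Scgb3a2, another secretoglobin gene, had 8.80, 5.03 and 4.71 on T2M arrays and 6.83 and 4.47 on eosinophil arrays, with 4.19 to 4.51 on the other 4. Cyp2f2, a cytochrome P450 gene of club cells, had 7.90, 4.53 and 4.97 on T2M arrays, 5.38 and 5.51 on eosinophil arrays, 5.12 and 3.32 on neutrophil arrays, and 4.37 and 4.02 on macrophage arrays. T2M replicate 1 was the highest array for all 3 genes, as it was for Col3a1 by its brighter probe set, whereas Scgb3a2 differed from Scgb1a1 in being high on 1 eosinophil array only. Sftpc was highest on T2M replicate 2 or neutrophil replicate 1, depending on the probe set.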
